A study of Mus musculus with 10 samples.

Results

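The genes described are those of the glutamatergic synapse in the mouse spinal cord: the ionotropic and metabotropic glutamate receptors, the vesicular glutamate transporters and the scaffold proteins of the postsynaptic density. They were chosen by symbol, as *Gria*, *Grid*, *Grik*, *Grin* or *Grm* followed by a digit, *Slc17a6* to *Slc17a8*, *Dlg1* to *Dlg4*, *Dlgap1* to *Dlgap4*, *Homer1* to *Homer3* and *Shank1* to *Shank3*, with a base mean above 0. The rule found 45 of the 25232 genes in the table, and none of the matching symbols had a base mean of 0. Of the 45, 43 belong to 10 gene families. The other 2 matched by their symbols alone, and of these *Grin1os* is described at the end. The values of 42 members are given.

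RNA was sequenced from the spinal cord of 5 wild type (WT) and 5 *SOD1G93A* female C57BL/6 mice at 90 days of age. The *SOD1G93A* mice carry a human *SOD1* transgene with a mutation of familial amyotrophic lateral sclerosis in many copies, a model that overexpresses the mutant protein. The methods describe WT littermates and the lumbar region, where the sample labels name the spinal cord only. The measure used is the base mean. For each gene, the counts of every library were divided by the size factor of that library and then averaged across WT and *SOD1G93A* mice together. The base mean is the authors' mean and has neither an SD nor a value per mouse, so that WT and *SOD1G93A* mice are not compared here and no difference between genes was tested. To set genes side by side, each base mean was divided by the length of the gene's exons in kb, and this quantity is the level.

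Glutamate is the main excitatory transmitter of the spinal cord. Vesicular transporters load it into synaptic vesicles, and after release it opens AMPA, NMDA and kainate receptors, which are cation channels of 4 subunits, or activates metabotropic receptors, which couple to G proteins. On the postsynaptic side the PSD-95 family (*Dlg*) holds receptors through PDZ domains, *Dlgap* proteins link this layer to Shank proteins, and Homer proteins connect Shank to the group I metabotropic receptors. AMPA receptors are also of interest in motor neurons, since their permeability to calcium depends on the GluA2 subunit, encoded by *Gria2*.

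The sequence around the pore glutamine/arginine position is shown because, among the AMPA subunits, this codon sets GluA2 apart. In *Gria2* transcripts the adenosine of the codon is edited, so that the receptor reads arginine where the genome encodes glutamine. The coding strand is written 5′ to 3′ from the GENCODE M21 transcripts on GRCm38, with the codon in capitals. Each window is 33 bases and lies within a single coding exon.
*Gria1* (chr11:57243079-57243111, plus strand): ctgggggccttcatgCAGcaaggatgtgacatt
*Gria2* (chr3:80706896-80706928, minus strand): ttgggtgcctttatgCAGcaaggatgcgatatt
*Gria3* (chrX:41610250-41610282, plus strand): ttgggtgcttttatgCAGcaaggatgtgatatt
*Gria4* (chr9:4464122-4464154, minus strand): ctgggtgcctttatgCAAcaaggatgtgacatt

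All 4 genes encode glutamine at this position, with the codon CAG in *Gria1*, *Gria2* and *Gria3* and CAA in *Gria4*. *Gria2* and *Gria3* were identical at 31 of the 33 bases, and *Gria1* and *Gria4* at 30. The codon is number 607 of *Gria2*, counted from the initiator methionine of a protein of 883 residues. The 5 kainate subunits carry CAG at the matching codon, and their windows shared 21 to 24 bases with those of the AMPA subunits. The base mean counts reads per gene, so the share of edited transcripts was not measured for *Gria2* or for any other AMPA or kainate gene.

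The members were well detected in the cord. A base mean of at least 10 was listed for 44 of the 45, of at least 100 for 43 and of at least 1000 for 28. Of the 20403 genes with a level, 76.6% reached 10, 60.8% reached 100 and 25.5% reached 1000. The base mean is not divided by length, and the protein-coding members had a median of 5.75 kb of exons. This median was 3.07 kb over all protein-coding genes with a level. The median level of the 45 members was 211 per kb, against 83.3 over the 20403 genes with a level. By level, 35 of the 45 were above the median gene, 15 above the 75th percentile and 4 above the 90th. These 4 were *Grin1*, *Grin1os*, *Slc17a6* and *Gria4*. Of the 45 members 44 are protein-coding, and of the 20403 genes 17727 are. The median percentile of the members was 67.8 against all 20403 genes. Against genes with a base mean of 10 or more it was 57.9. Together the 45 genes made up 0.408% of the summed base mean. Apart from *Grm6*, the histogram shows their levels in a narrower range than those of all genes. As 45 values are set against 20403, a narrower range is no trait of the members by itself.

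**Figure D1:**
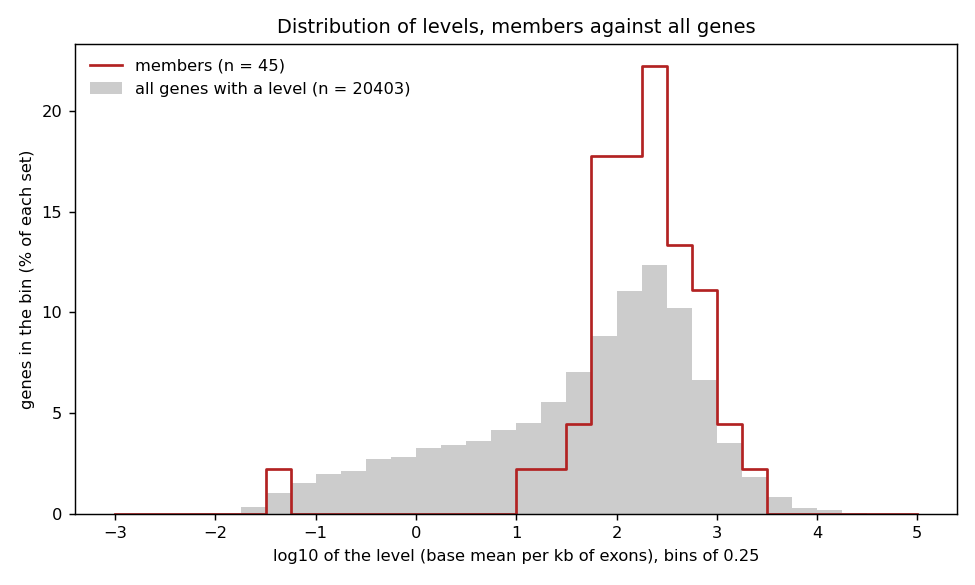
Distribution of the level (base mean per kb of exons, log10, bins of 0.25) as a percentage of each set, for the 45 members (red line) and for all 20403 genes with a level (grey bars). All members but *Grm6*, the bin at the far left, lie between 11.3 and 2040.3 per kb.

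Among the vesicular transporters, *Slc17a6* was by far the highest. *Slc17a6* encodes VGLUT2, a transporter of excitatory neurons that reside in the cord, and had a base mean of 5255 and a level of 1270.2 per kb, at the 95.1 percentile of all genes. *Slc17a7* encodes VGLUT1, known from the terminals of proprioceptive afferents and corticospinal fibres, and had a base mean of 460.2 and a level of 154. These levels are of RNA and do not measure the protein at terminals. *Slc17a8*, which encodes VGLUT3, had a base mean of 53.3 and a level of 11.3. *Slc17a6* thus made up 88.5% of the summed level of the 3 genes, and its level was 8.25 times that of *Slc17a7* and 112 times that of *Slc17a8*. Its share stayed between 88.5% and 91.2% whichever of 4 gene lengths was used as the divisor. These were the exons of the basic transcripts, the exons of all transcripts, the longest transcript and the longest coding sequence.

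The 4 AMPA receptor genes had levels within 1.47 times of each other per kb of exons. With the exons of all transcripts joined they lay further apart, from 317 for *Gria3* to 749 for *Gria4*. *Gria4*, the subunit GluA4, had a base mean of 4720.2 and a level of 749 per kb. *Gria1* (GluA1) followed with a base mean of 4120.1 and a level of 712. *Gria3* (GluA3) had a base mean of 3123 and a level of 574. *Gria2* had the highest base mean of the family, 5337, but the lowest level, 509, because its basic transcripts join to 10.5 kb of exons where those of *Gria4* join to 6.3 kb. The place of *Gria2* therefore depended on the length taken. Per kb of coding sequence it was the highest of the family at 2015, above *Gria4* at 1744, *Gria1* at 1514 and *Gria3* at 1172. Its share of the family was 20.0% per kb of exons and ran from 16.4% to 31.3% over the 4 divisors, while *Gria4* took 27.1% to 35.8%. The order of *Gria4* above *Gria1* and of *Gria1* above *Gria3* was the same under all 4 divisors.

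*Grin1* stood out among the NMDA receptor genes. It encodes GluN1, the subunit that NMDA receptors require, and had a base mean of 8912 and a level of 2040.3 per kb, the highest of all members, at the 97.4 percentile. With the exons of all transcripts joined its level was 919, below *Slc17a6* at 973 and *Grin1os* at 1396. Of the principal *Grin1* transcript, 30.8% overlaps exons of *Grin1os* on the opposite strand. Reads from that part can be told apart only if strand was used in counting. The glutamate-binding GluN2 subunits lay well below *Grin1*. *Grin2c* had a level of 143 (base mean 721), *Grin2d* 134 (base mean 822), *Grin2a* 81.9 (base mean 1225) and *Grin2b* 65.0 (base mean 1612). The level of *Grin1* was 4.82 times the sum of these 4, and this ratio fell to 2.97 per kb of coding sequence and to 2.30 with the exons of all transcripts. The order among the GluN2 genes was not settled by these data. *Grin2b* has the longest exons of the members, 24.8 kb, and was the lowest of the 4 per kb of exons but the highest per kb of coding sequence, 363 against 279 for *Grin2a*, 207 for *Grin2d* and 194 for *Grin2c*.

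*Grin3a*, which encodes the glycine-binding subunit GluN3A, had the next level after *Grin1*, 221 per kb, and a base mean of 1653. It fell behind *Grin2c* when the exons of all transcripts were joined. *Grin3b*, known from motor neurons, had a level of 79.5 and a base mean of 261. Of the 3296 exonic bases of *Grin3b*, 32.1% overlap exons of *Tmem259* on the opposite strand. Reads from the shared bases can be told apart only if strand was used in counting.

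In the kainate family *Grik5* led with a base mean of 2276 and a level of 605 per kb, 57.5% of the family. *Grik5* was the highest under each of the 4 divisors, but its share ran from 39.0% to 57.5%. It encodes GluK5, a subunit that forms channels only together with GluK1 to GluK3. *Grik3* had a level of 140.0, *Grik4* of 118, *Grik2* of 99.6 and *Grik1* of 90.4. Per kb of coding sequence these 4 lay further apart, from 134 for *Grik1* to 456 for *Grik3*, and *Grik2* at 379 was above *Grik4* at 244. *Grik4* and *Grik5* together made up 68.6% of the family, and between 51.3% and 68.6% over the divisors. The delta receptor *Grid1*, which acts as a synaptic organizer more than as a glutamate-gated channel, had a level of 209.

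Summed over their subunits, AMPA receptors reached a level of 2544, NMDA receptors of 2764 and kainate receptors of 1052, which is 40.0%, 43.5% and 16.5% of the 3 families. AMPA against NMDA gave a ratio of 0.92, but 1.37 per kb of coding sequence, so that no order of these families can be given. Both were above the kainate receptors, AMPA by 2.42 to 3.24 times over the divisors.

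**Figure D2:**
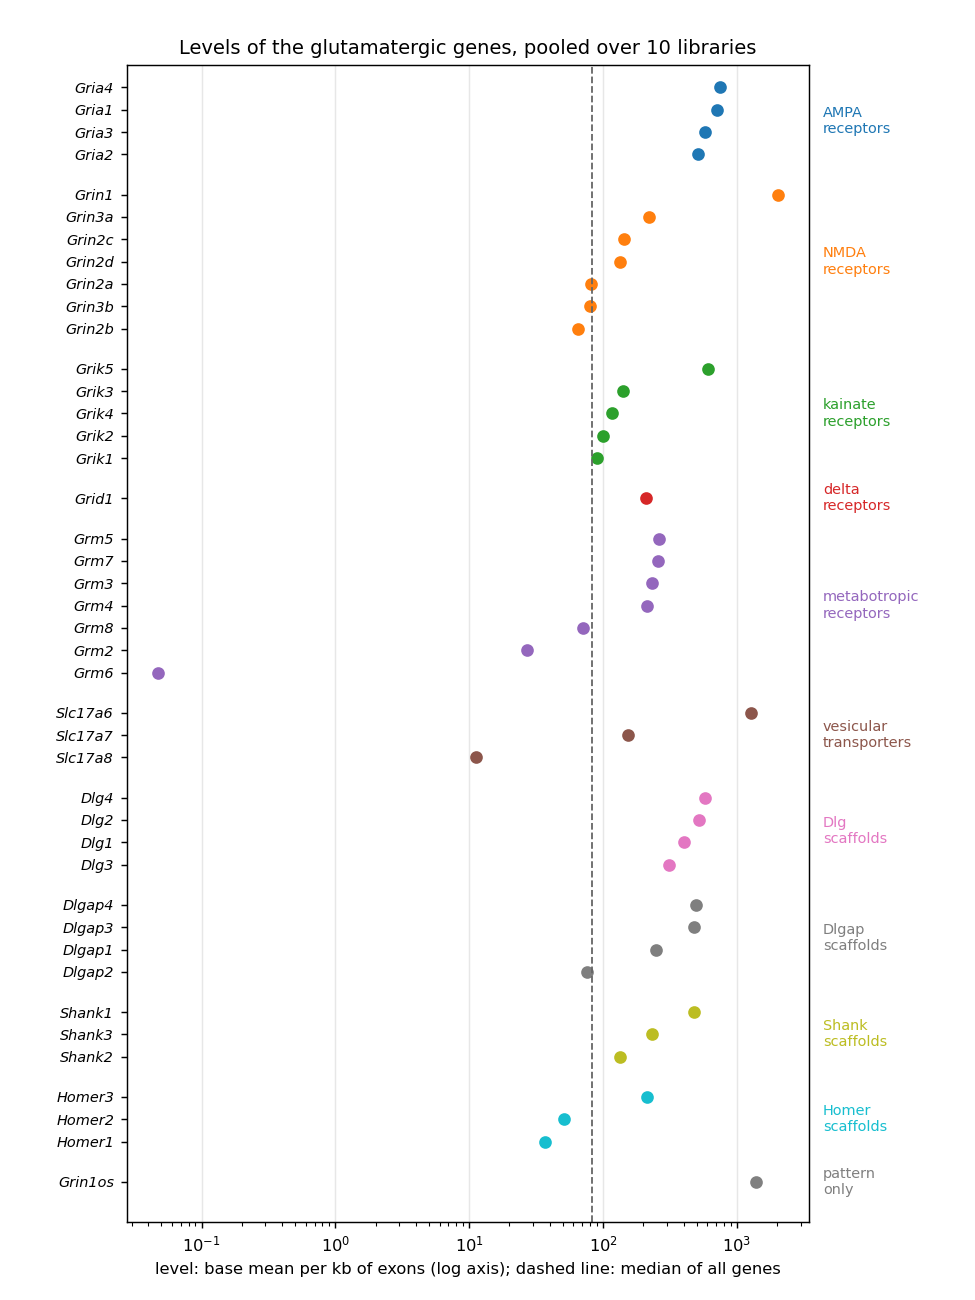
Level of 42 members (base mean per kb of exons, pooled over all 10 libraries, log axis), grouped by family and ordered by level. The dashed line is the median of all genes, 83.3 per kb. *Grin1* at 2040.3 and *Slc17a6* at 1270.2 stand apart from the rest of their families, and *Grm6* at 0.047 is the lowest member.

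The metabotropic receptors had lower levels than the AMPA receptors. *Grm5*, a receptor that signals through Gq, had the highest level of the family, 264 per kb, but was below *Grm3*, 209.8 against 233, with the exons of all transcripts joined. In group II, *Grm3* had a level of 233 and *Grm2* of 26.8. In group III, *Grm7* had a level of 256, *Grm4* of 213 and *Grm8* of 70.5. *Grm6*, which is known from ON bipolar cells of the retina, was listed with a base mean of 0.210 and was the only member under 10. The level of *Grm5* was 1.03 times that of *Grm7*, and this order was the same under all 4 divisors.

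The 14 scaffold genes had a median level of 282 per kb, above the 155 of the 26 receptor subunits. The mean level was 305 for both sets, so this order holds for the median only. *Dlg4*, which encodes PSD-95, had a base mean of 6981, the highest of the scaffolds, and a level of 581. *Dlg2* (PSD-93) followed with a base mean of 4623 and a level of 519.8, *Dlg1* (SAP97) with a level of 406 and *Dlg3* (SAP102) with a level of 313. *Dlg4* was the highest of the 4 under each divisor, with 31.9% to 47.6% of the family. The *Dlgap* genes encode the proteins that bind the guanylate kinase domain of PSD-95. *Dlgap4* and *Dlgap3* had levels of 499 and 483, *Dlgap1* of 251 and *Dlgap2* of 75.9. The first place passed to *Dlgap3* when the exons of all transcripts were joined.

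*Shank1* had a base mean of 4694 and a level of 478 per kb, 2.06 times that of *Shank3* at 232, and *Shank2* had a level of 133. The order of the 3 Shank genes was the same under every divisor, and *Shank1* took 55.1% to 58.5% of the family. The Homer family, whose members also bind group I metabotropic receptors, had the lowest summed level of the scaffolds per kb of exons, and the Shank family had the lowest per kb of coding sequence. *Homer3* had a level of 211 (base mean 603), *Homer2* of 51.2 (base mean 572) and *Homer1* of 36.6 (base mean 421). Their base means were close, and their exons differ in length, from 2.85 kb for *Homer3* to 11.5 kb for *Homer1*. *Homer3* took 70.7% of the family per kb of exons and 37.9% per kb of coding sequence. Of the exonic bases of *Homer3*, 25.4% overlap *Ddx49* on the opposite strand. In all, the Dlg family made up 42.6% of the summed level of the scaffolds, the Dlgap family 30.6%, the Shank family 19.7% and the Homer family 7.01%. Over the divisors the Dlg family took 40.6% to 54.4%, the Dlgap family 21.9% to 30.6%, the Shank family 11.0% to 22.6% and the Homer family 6.84% to 12.6%.

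**Figure D3:**
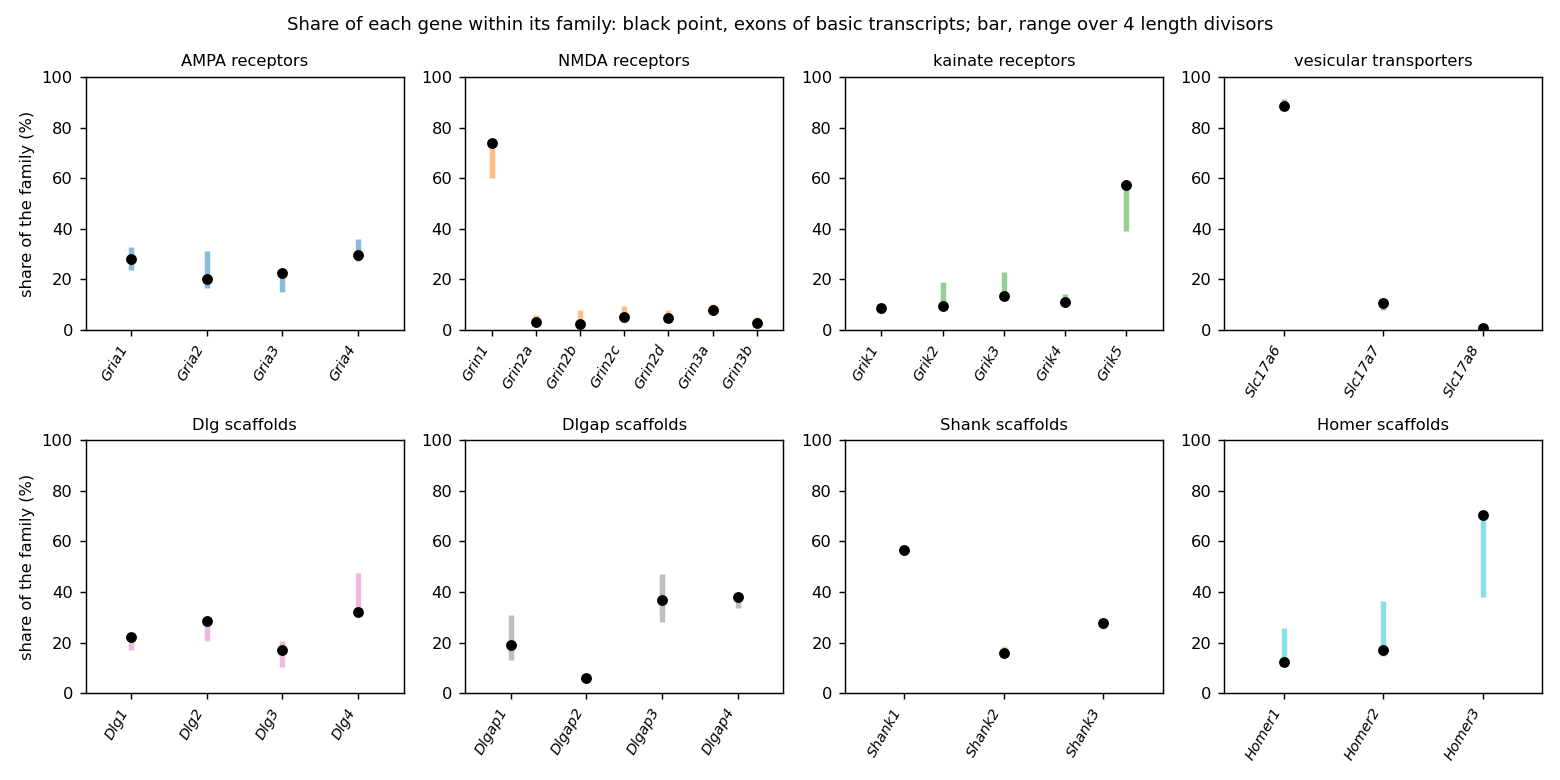
Share of each gene in the summed level of its family (%) for 8 families, with the black point for the exons of basic transcripts and the coloured bar for the range over the 4 length divisors. *Slc17a6*, *Grin1* and *Shank1* keep over 55% of their families along the whole bar, while the bars of *Gria2* and *Gria4*, and of *Homer2* and *Homer3*, come close or overlap.

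Within the 10 families there were 33 pairs of genes next to each other in level. Of these, 20 kept their order under all 4 divisors and 13 turned in at least 1 of them. As no spread between mice is given, an order that held here is stable to the choice of length only.

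The ends of the coding sequences are shown because the *Dlg* and Shank proteins bind partners by their last residues, and the members differed in this feature. The last 4 codons before the stop codon are in capitals. The receptors carried the class I PDZ ending, serine or threonine at the third codon from the end and valine, isoleucine or leucine at the last, in 10 of 26 genes (38.5%), where 5.14% of 17689 protein-coding genes with a base mean above 0 had it.
*Grin2a* (chr16:9577827-9577844, minus strand): attGAATCTGATGTCtaa
*Grin2b* (chr6:135732098-135732115, minus strand): attGAGTCTGATGTCtga
*Grin2c* (chr11:115249571-115249588, minus strand): ctgGAATCAGAAGTGtga
*Grin2d* (chr7:45832780-45832797, minus strand): ctgGAGTCCGAGGTAtga
*Gria1* (chr11:57327629-57327646, plus strand): ggaGCCACAGGATTGtaa
*Gria2* (chr3:80689106-80689123, minus strand): gagAGTGTTAAAATTtag
*Dlgap3* (chr4:127236351-127236368, plus strand): gccCAGACCAGGCTGtga
*Dlgap4* (chr2:156762886-156762903, plus strand): gccCAGACCAGGCTCtaa

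All 4 GluN2 genes, *Grid1*, *Gria1*, *Grm2*, *Grm3* and *Grm5* were among those with the ending, and none of the 5 kainate receptors did. *Grin1* and the *Grin3* genes were also without it. The 4 *Dlgap* genes all had it, which is the end that the PDZ domain of Shank binds. These are the ends of 1 principal transcript per gene in GENCODE M21, and a match is a description of the letters, not of binding.

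The members were also long genes. The 44 protein-coding members had a median span of 167 kb, and 59.1% were 100 kb or longer, where the 17727 protein-coding genes with a level had a median of 22.1 kb and 13.6% were that long. The longest was *Dlg2*, 1973 kb on chr7:90476672-92449247. The receptor subunits had a median span of 298 kb and the scaffolds of 106 kb. The 3 vesicular transporters were all under 100 kb, and *Grin3b* was the shortest member at 6.48 kb. *Grin1* spans 28.0 kb on the minus strand of chromosome 2. Chromosome 7 held 9 of the 45 members, among them *Slc17a6*, *Slc17a7*, *Grik5* and *Shank1*. Promoters from RefSeq (GRCm38.p6, a fixed window around each annotated start) were at hand for 31 members, with 48 starts. Of these starts, 41.7% had an observed over expected CG ratio of at least 0.6, where 55.8% of 17555 promoters of protein-coding genes did. Those 17555 promoters came from 14028 genes, and a gene with several starts was counted once per start. The member starts include that of the non-coding *Grin1os*, and 14 members had no promoter at hand. The shares therefore describe starts, not genes.

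To place the receptors beside their partners, the auxiliary subunits of AMPA and kainate receptors and other genes of the postsynaptic density were read from fixed lists. All 15 auxiliary subunits had a base mean of at least 100, where 60.8% of the 20403 genes with a level did. *Cacng7*, which encodes the AMPA receptor regulatory protein γ-7, was the highest at a level of 1818 per kb, followed by *Cnih2* at 423, *Shisa6* at 353 and *Cacng2* (stargazin) at 285. Of the 14 other postsynaptic genes, *Camk2b* had the highest level, 2186, and *Camk2a* had 627. Of 8 genes of glutamate uptake and metabolism, 7 had a base mean of at least 100. *Glul* (glutamine synthetase) and *Slc1a2* (the transporter GLT-1), both known from astrocytes, had levels of 14294 and 4569, above those of all 45 members.

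Set against the inhibitory side, the 16 AMPA, NMDA and kainate subunits summed to 6360.4 per kb and the 18 GABA-A and glycine receptor subunits to 7505, a ratio of 0.847. The ratio was below 1 under all 4 length divisors, with a low of 0.633, and was 1.26 when base means were summed with no division by length. GABA-A receptors summed to 3728 and glycine receptors to 3777, where *Glrb* and *Glra1* had levels of 2449 and 1162. *Slc17a6* to *Slc17a8* summed to 1435 per kb, against 1524 for *Slc32a1*, the vesicular transporter of GABA and glycine. This ratio of 0.942 went from 0.702 to 1.22 over the divisors, so neither side can be put first. *Dlg4* was 1.15 times as high as *Gphn* (gephyrin, the scaffold of inhibitory synapses) at 507, and between 1.06 and 3.77 times over the divisors.

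**Figure D4:**
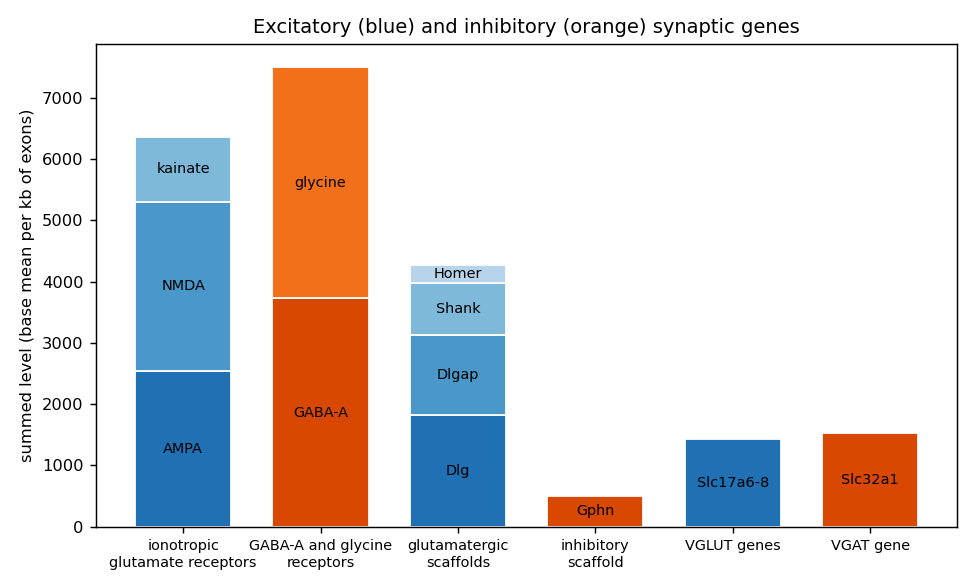
Summed level (base mean per kb of exons, pooled over all 10 libraries) of ionotropic glutamate receptors, glutamatergic scaffolds and vesicular glutamate transporters (VGLUT, blue) beside their GABA and glycine counterparts (orange). The ionotropic glutamate receptors sum to 6360.4 and the inhibitory receptors to 7505, and the parts of each bar are its families.

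Marker genes were read to check the labelled tissue. All 5 *Hox9* and *Hox10* genes examined had base means between 152 and 489, and the forebrain genes *Emx1* and *Neurod6* were at 0.993 and 78.9. Markers of motor neurons were present, with *Chat* at a base mean of 735 and *Mnx1* at 37.3. By level, the median marker stood at the 96.8 percentile for neurons, 99.9 for oligodendrocytes, 98.2 for astrocytes, 72.4 for microglia, 72.9 for endothelium, 62.9 for fibroblasts, 56.3 for oligodendrocyte precursors and 39.6 for skeletal muscle. The dorsal root ganglion genes *Scn10a*, *Trpv1* and *Mrgprd* had base means of 86.9, 14.9 and 8.80. The part of ganglion RNA in the values of *Slc17a6* and *Slc17a7* was not tested. In a bulk sample, fewer cells of a type and less RNA per cell cannot be told apart.

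*Grin1os*, outside the families, is an antisense RNA gene on the plus strand of chr2:25291220-25298925, opposite *Grin1*, and had a base mean of 4037 and a level of 1396, at the 95.6 percentile. Of its 2891 exonic bases, 1307 (45.2%) lie over exons of the principal *Grin1* transcript, 1184 of them coding, and these make up 30.8% of that transcript. The libraries were stranded, but the strand setting of the counting is not given in the sources used here. Without strand, reads from the shared bases could not be assigned to *Grin1* or to *Grin1os*. The level of *Grin1* was 1.46 times that of *Grin1os*, and 0.658 times with the exons of all transcripts joined. Sequence shared with other genes on the same strand was rare. On that strand, 42 of the 45 members had no window of 100 bases in common with another gene, and *Grin2a* had the most, 10.7% of its windows. More members shared windows on the opposite strand. The highest shares there were 17.5% for *Homer3*, 14.9% for *Grin3b*, 12.8% for *Grin1os*, 9.46% for *Grm6* and 7.44% for *Grm2*. Reads from these windows too can be told apart only if strand was used in counting.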

How the data were processed

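RNA-seq libraries of 5 WT and 5 *SOD1G93A* spinal cords were made with a stranded mRNA kit and read as pairs of 100 bases, per the methods. The authors removed reads under Phred 30 or 30 bases with Fastp, aligned to mm10 with HISAT2 2.1.0, counted uniquely mapped reads with featureCounts 2.0.2 and compared genotypes with DESeq2; the versions are from the submitters' processing notes, and the annotation and strand setting are not given in the sources used here. The deposited table holds, per gene, the base mean, which is a signal (counts divided by size factors by the authors and averaged over all libraries), and 5 columns of the authors' own comparison: log2 fold change, its standard error, a statistic, and p-values before and after adjustment. Those 5 columns were not used, so no genotype test was made. Depth per library is unknown; the base means sum to 22158933, and the precision of a single value cannot be given.

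Symbols were matched to GENCODE M21 (GRCm38, the build of mm10), with 24363 of 25232 found (96.6%), and all 45 members. The level is the base mean divided by the kb of joined exons of the basic transcripts. RefSeq exons were planned, and GENCODE was used in their place. Percentiles are over the 20403 genes with a base mean above 0 and a length. The alternatives were the longest transcript, the coding length, no length, all transcripts joined (added after the data were seen), a floor of 10 on the base mean, means or sums for medians, and RefSeq synonyms. Members are named by their symbols, some members and markers are not reported here, and other genes come from lists of synaptic genes and markers. Members and lists were chosen with earlier results of these data known. The functions that join exons and measure their overlaps were tested on simulated intervals. The steps that give the levels, shares and percentiles were not tested in this way. The software was Python 3.11.15, numpy 2.4.6, pandas 2.3.3 and matplotlib 3.10.9.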

Additional observations from a re-analysis of the deposited data

How the results depend on the processing

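A value was called moved when it changed by more than 1.5 times, since no spread between mice is given. The level of *Grin1* over the summed GluN2 levels was 4.82, and moved to 2.30 with the exons of all transcripts, 2.97 per kb of coding sequence and 2.03 with no length. With means for medians, the level moved from 211 to 336 for all members and from 155 to 305 for the receptor subunits. For the scaffolds it went from 282 to 305 and did not move. The sums were 15122, 7932 and 4270.0 for these 3 sets. A sum grows with the number of genes, so its distance from the median is no check on the level. The ratios of ionotropic to inhibitory receptors, AMPA to NMDA receptors and *Slc17a6* to *Slc17a7* stayed within 1.5 times. So did those of scaffolds to ionotropic receptors and of vesicular glutamate transporters to *Slc32a1*. Of these ratios, the first, second and last crossed 1. The median percentiles also stayed within 1.5 times. A percentile has an upper limit, so those of all members, 67.8, and of the scaffolds, 73.9, could not have risen that far. Against genes with a base mean of 10 or more, the median percentile of the receptor subunits fell from 61.1 to 49.3, below the median gene. Under the other settings it was 58.0 to 78.1. Against the same genes, all members fell to 57.9 and the scaffolds to 66.0. Of the 172 shares recomputed within families, 32 moved, 12 of them per kb of coding sequence and 12 with no length. The highest gene of 8 to 10 of the 10 families was the one named. RefSeq synonyms added 1 gene to the 45, *Mpp2*, which has *Dlg2* among its older names. No paired analysis was possible because the table holds no values of single libraries, and for the same reason no replicate could be left out.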
